A study of Mus musculus with 6 samples.

Results

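Slc4a1 (ENSMUSG00000006574) and Rhd (ENSMUSG00000028825) are 2 of the 5294 genes that the probe panels of these sections hold between them, and they were chosen by name because both encode proteins of the red cell membrane. Their transcripts were counted in situ, cell by cell, in 5 µm sections of mouse hematopoietic organs, by imaging that reads out each RNA molecule through probes for its gene and keeps its position. There were 6 sections, 1 per condition, all from wild-type C57BL/6 mice: fetal liver at embryonic day 14.5 (E14.5), bone marrow at postnatal day 8 (P8), an adult spleen for which the labels give no treatment (the untreated spleen), an adult spleen after phenylhydrazine (PHZ), fetal liver at E13.5 and bone marrow of a mouse aged 89 weeks. PHZ, which destroys red cells and so causes anemia, was injected at 40 mg per kg 2 times a day for 2 days. The first 4 of these were imaged in a single run on a panel of 477 genes that holds both genes, the liver and the marrow on a slide of their own and both spleens on another. The E13.5 liver and the 89-week marrow were imaged later on a panel of 5050 genes that holds Slc4a1 but not Rhd, so panel, run and age cannot be told apart for them. The marrow of the aged mouse had also been fixed, cut into thick slices and separated from bone before embedding. With 1 section per condition nothing could be tested between conditions, and every interval given is a 95% interval that covers counting error only.

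Slc4a1 encodes band 3, the anion exchanger through which red cells trade chloride for bicarbonate, and a main anchor of the membrane to the skeleton beneath it. Rhd encodes the Rh protein that sits with Rhag in the Rh complex of the same membrane. Both are made by erythroblasts, the nucleated precursors of red cells. As erythroblasts mature they lose Kit, the receptor for stem cell factor that marks early progenitors, their nucleus shrinks, and at last it is pushed out. Much of this takes place in erythroblastic islands, where erythroblasts surround a macrophage. C1qa, C1qb and C1qc encode the chains of complement component C1q, which macrophages make, and summed counts of the 3 genes are called C1q counts here.

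Cells with at least 5 detected genes were kept, 117323 in the E14.5 liver, 50523 in the P8 marrow, 108327 in untreated spleen, 94492 in PHZ spleen, 5254 in the E13.5 liver and 140707 in the 89-week marrow. The median depth was between 62 and 191 gene counts per cell. No negative control probe gave more than 105 counts in a section, against 5627 for Rhd where it was lowest. Any pair of sections shared between 0 and 6 cell names. Erythroid-gate cells, with at least 3 summed counts of 5 erythroid genes, Klf1, Gata1, Hemgn and Epor among them, and fewer than 3 C1q counts, made up 82.1% of cells in the E14.5 liver, 47.9% of cells in the P8 marrow, 0.724% of cells in untreated spleen and 37.0% of cells in PHZ spleen. Slc4a1 and Rhd took no part in that gate. In the E14.5 liver the gate did not separate cell types, since 95.8% of the cells with at least 5 counts of hepatocyte genes fell into it as well. A cell there is a nucleus with an outline expanded around it, which in packed tissue can hold transcripts of its neighbors.

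The promoter of Rhd is shown because 2 of the transcription factors that drive erythroid genes, Gata1 and Klf1, were measured in the same cells as its transcript. RefSeq places it on the plus strand at chr4:134864286-134864585 of GRCm38.p6, from 250 bases before the start of the gene to 50 after it. Capitals mark AGATAA, a sequence of the kind GATA factors bind, and CACCC or its reverse complement GGGTG, a core of the boxes that Klf1 binds:
Rhd: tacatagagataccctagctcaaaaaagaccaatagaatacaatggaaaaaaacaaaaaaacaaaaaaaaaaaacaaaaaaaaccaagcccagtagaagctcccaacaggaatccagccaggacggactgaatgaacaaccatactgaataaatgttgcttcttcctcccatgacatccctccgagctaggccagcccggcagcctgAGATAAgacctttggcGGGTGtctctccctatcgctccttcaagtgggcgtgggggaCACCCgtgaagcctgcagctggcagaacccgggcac
AGATAA was found once, from base 208 of the sequence, which is base -43 from the start. CACCC was found from base 265, or base 15 past the start, and its reverse complement from base 224, or base -27. Both strands were searched and no match overlapped another. Of 32851 promoters of the same length, 11.2% held AGATAA and 57.5% held CACCC on either strand. These matches are letters in a window, and no binding was measured.

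Slc4a1 was the second most abundant of the 477 genes in 3 sections, after the hemoglobin gene Hbb-bt. Its level, in counts per 1000000 gene counts of the section (CPM), was 64062 in the E14.5 liver, 45250.1 in the P8 marrow, 3643 in untreated spleen and 40968 in PHZ spleen. That of Rhd was 18014 in the E14.5 liver, 10264 in the P8 marrow, 544 in untreated spleen and 13057 in PHZ spleen. Both genes thus stood in the order E14.5 liver and then, at a distance from it, P8 marrow or PHZ spleen, with the untreated spleen lowest. The order of the middle pair differed between the genes, since Slc4a1 was higher in the marrow and Rhd higher in the PHZ spleen. Slc4a1 ranked 78 in the untreated spleen. Rhd ranked 15 in the E14.5 liver, 25 in the P8 marrow, 192 in untreated spleen and 22 in PHZ spleen. The mean of Slc4a1 per cell was 11.4 in the E14.5 liver, 5.76 in the P8 marrow, 0.348 in untreated spleen and 4.96 in PHZ spleen. The mean of Rhd was 3.22 in the E14.5 liver, 1.31 in the P8 marrow, 0.0519 in untreated spleen and 1.58 in PHZ spleen. Neighbors in these orders differed by more than their counting intervals, but their spread over animals was not measured.

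**Figure D1:**
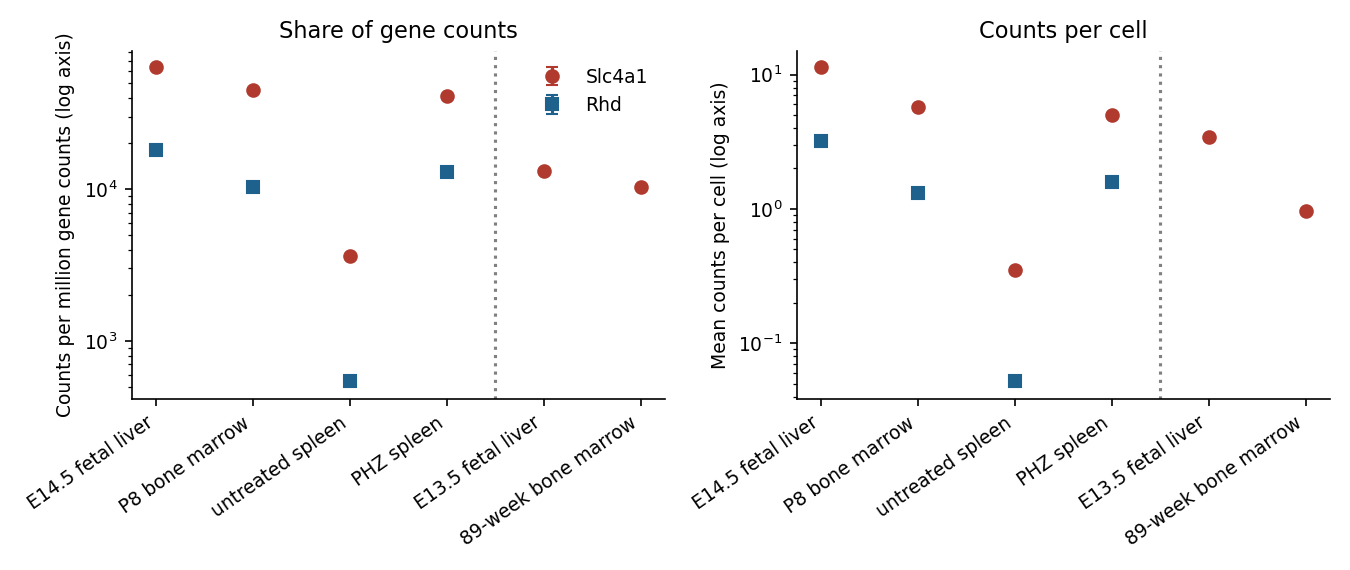
Slc4a1 (circles) and Rhd (squares) in each section, as CPM (left) and as mean counts per cell (right), both on log axes. Bars are 95% Poisson intervals and are smaller than the symbols; sections right of the dotted line were measured on the larger panel, which has no Rhd probe. The untreated spleen is lowest for both genes, at 3643 and 544 CPM.

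At least 1 Slc4a1 count was seen in 97.1% of cells in the E14.5 liver, 68.7% of cells in the P8 marrow, 11.3% of cells in untreated spleen and 64.9% of cells in PHZ spleen. At least 1 Rhd count was seen in 78.6% in the E14.5 liver, 44.5% in the P8 marrow, 2.27% in untreated spleen and 45.6% in PHZ spleen. In the E14.5 liver the median cell held 10 Slc4a1 counts, the cell at the 90th percentile 22 and the highest 84. These values were 3, 15 and 123 in the P8 marrow, and in the PHZ spleen 2, 14 and 49. The untreated spleen had its Slc4a1 in few cells: the 10% of cells with most of it held 96.2% of all its counts there, compared with 23.7% in the E14.5 liver. Its median cell had none, and the highest held 55. The variance of Slc4a1 over cells, divided by its mean, was 5.30 in the E14.5 liver, 7.78 in the P8 marrow, 8.81 in untreated spleen and 7.49 in PHZ spleen. For Rhd that quotient was 2.96 in the E14.5 liver, 3.27 in the P8 marrow, 4.34 in untreated spleen and 3.79 in PHZ spleen.

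Such shares depend on depth, so each cell was also thinned to 50 gene counts. Slc4a1 was then seen in 88.4% in the E14.5 liver, 64.1% in the P8 marrow, 8.15% in untreated spleen and 61.1% in PHZ spleen. Rhd was seen in 53.0% in the E14.5 liver, 32.8% in the P8 marrow, 1.33% in untreated spleen and 35.9% in PHZ spleen. Between 1.89% (E14.5 liver) and 15.6% (untreated spleen) of the cells were too shallow to be thinned and were left out. The order of the sections was the same with and without thinning for both genes.

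**Figure D2:**
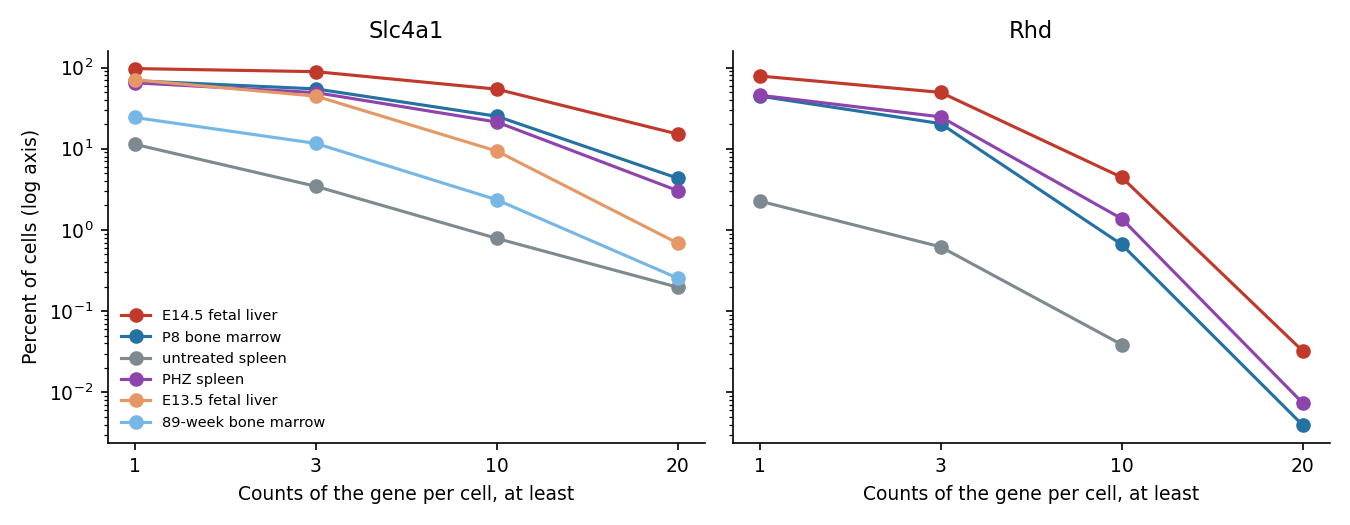
Percent of cells (log axis) that held at least 1, 3, 10 or 20 counts of Slc4a1 (left) and of Rhd (right), with a line per section. 15.1% of E14.5 liver cells held at least 20 Slc4a1 counts and 0.197% of untreated spleen cells did; no point is drawn for Rhd at 20 counts in the untreated spleen, where 0 of 108327 cells reached it, which allows a share of up to 0.00277% (3 counts of the total).

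Cells with Rhd alone were the smallest of the 3 classes of cells with either gene. Cells with both made up 78.1% in the E14.5 liver, 43.3% in the P8 marrow, 1.69% in untreated spleen and 43.9% in PHZ spleen. Cells with Slc4a1 alone made up 19% in the E14.5 liver, 25.4% in the P8 marrow, 9.65% in untreated spleen and 21.0% in PHZ spleen. Cells with Rhd alone made up 0.551% in the E14.5 liver, 1.18% in the P8 marrow, 0.582% in untreated spleen and 1.74% in PHZ spleen. In the untreated spleen there were 630 cells with Rhd alone, against 1826 with both. Slc4a1-only cells thus outnumbered those with both genes in the untreated spleen, with 10452 of them, whereas in each of the other sections cells with both were the larger class. Over cells, Spearman's rho between the counts of both genes was 0.684 in the E14.5 liver, 0.738 in the P8 marrow, 0.326 in untreated spleen and 0.775 in PHZ spleen. Depth per cell is shared by both counts. Among erythroid-gate cells alone rho was 0.648 in the E14.5 liver, 0.542 in the P8 marrow, 0.504 in untreated spleen and 0.587 in PHZ spleen.

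The genes whose pattern over cells was most like that of Slc4a1 were found on the log scale after each cell was scaled to 5000 counts. Among the 5 nearest in the E14.5 liver were Slc25a37, the mitochondrial iron importer mitoferrin (Pearson's r 0.642), Hbb-bt, Fech and Hemgn. In the P8 marrow they included Hbb-bt (0.817), Car2, Slc25a37 and Ctse. Those of the untreated spleen included Hbb-bt (0.539), Car2, Prx and Hemgn, and those of the PHZ spleen Hbb-bt (0.752), Hemgn, Car2 and Fech. Car2 encodes carbonic anhydrase, which makes the bicarbonate that band 3 carries, and Fech an enzyme of heme synthesis. Rhd was most like Hemgn, an erythroid nuclear protein, in all 4 sections, with r of 0.562 in the E14.5 liver, 0.687 in the P8 marrow, 0.466 in untreated spleen and 0.708 in PHZ spleen. The others among the 5 nearest to Rhd included Slc25a37, Fech and Slc4a1 in the E14.5 liver, and Ctse and Car2 in the P8 marrow. They included Klf1, Aqp1 and Prx in the untreated spleen and Aqp1, Ctse, Prx and Slc4a1 in the PHZ spleen. Between Slc4a1 and Rhd themselves r was 0.485 in the E14.5 liver, 0.632 in the P8 marrow, 0.363 in untreated spleen and 0.661 in PHZ spleen. These correlations run over the cells of a single section each and describe it.

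PHZ treatment is used to make the spleen produce red cells. Slc4a1 had 37716 counts in the untreated spleen and 468275 in the PHZ spleen, and Rhd 5627 and 149245. Both genes were far higher in the PHZ spleen. In CPM the ratio of PHZ to untreated was 11.2 for Slc4a1 (interval 11.1 to 11.4) and 24.0 for Rhd (23.4 to 24.7). Of 343 genes with at least 1000 counts over both spleens, 60 (17.5%) were at least 2-fold higher in the PHZ spleen and 122 (35.6%) at least 2-fold lower. By size of the ratio Rhd ranked 2 and Slc4a1 11 among them. More erythroid cells and more transcript per erythroid cell cannot be told apart in such totals, so erythroid-gate cells were set side by side. Gated cells held 3531 of the 37716 Slc4a1 counts of the untreated spleen but 292220 of the 468275 of the PHZ spleen, so the gate leaves out most of the gene in the first. They numbered 784 in the untreated spleen and 34927 in the PHZ spleen. A gated cell held on average 4.50 Slc4a1 counts in the untreated spleen and 8.37 in the PHZ spleen, and 1.00 and 2.86 Rhd counts. Per gene count of these cells the ratio was 1.73 for Slc4a1 and 2.66 for Rhd, well below the ratio over the whole section in both cases. Of gated cells, 71.2% held Slc4a1 and 38.0% Rhd in the untreated spleen, and 95.4% and 79.3% in the PHZ spleen. Such levels also move with the threshold of the gate. Over 5 classes of nucleus area, Slc4a1 per 1000 gene counts ran from 33.0 to 41.3 in the untreated and from 57.6 to 66.6 in the PHZ spleen. With the gate at 5 counts it ran from 35.9 to 51.8 and from 58.0 to 69.0.

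Of 28 red cell membrane genes listed, 6 were on the panel and all 6 had enough counts. Between the spleens 4 were at least 2-fold higher after PHZ, 0 at least 2-fold lower and 2 neither, and their median ratio was 9.97, compared with 0.677 over all genes. Beside Rhd and Slc4a1, the higher ones included Aqp1, the water channel (11.5). The urea transporter gene Slc14a1 (1.95) and Cd44, a receptor for hyaluronan that many blood cells carry (0.717), were within 2-fold. Of 20 other erythroid genes on the panel (of 21 listed), 17 were at least 2-fold higher and 0 at least 2-fold lower, with a median ratio of 5.77. The ratio was 75.4 for Plek2, 18.6 for Hemgn, 17.9 for Klf1 and 16.3 for Gata1, and 5.19 for Hbb-bt. It was 11.2 for Ctse, 10.05 for the erythropoietin receptor gene Epor, 8.58 for Car2 and 3.19 for the transferrin receptor gene Tfrc. Podxl, Fech, Isg20, Diaph3, Slc25a37, Hk1 and Isca1 lay between 2.57 (Isca1) and 7.03 (Podxl). Selenbp1, Ndufa4l2 and Cd36 were within 2-fold. Of these lists Rhd thus stood between Plek2 and Hemgn, and Slc4a1 between Aqp1 and Ctse.

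The number of Slc4a1 counts for every Rhd count was 3.56 in the E14.5 liver, 4.41 in the P8 marrow, 6.70 in untreated spleen and 3.14 in PHZ spleen. The intervals of these ratios did not overlap: they ran from 3.54 to 3.57 in the E14.5 liver, 4.37 to 4.45 in the P8 marrow, 6.52 to 6.89 in the untreated spleen and 3.12 to 3.16 in the PHZ spleen. The panel files list a coverage of 8 for both genes, read here as a number of probe sets, but probes differ in how well they bind, so the ratio is one of decoded transcripts and was compared only between cells and places of the same panel. Among erythroid-gate cells the ratio was 3.46 in the E14.5 liver, 4.17 in the P8 marrow, 4.50 in untreated spleen and 2.93 in PHZ spleen. It was lower than over all cells in each section, most of all in the untreated spleen. Per cell, among those with at least 10 counts of both genes together, the median share of Slc4a1 was 78.6% in the E14.5 liver, 81.8% in the P8 marrow, 83.3% in untreated spleen and 75% in PHZ spleen. From the 10th to the 90th percentile of these cells that share ran from 63.6 to 91.7% in the E14.5 liver and from 58.3 to 91.3% in the PHZ spleen.

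Across each section the ratio varied with place. Over tiles of 200 µm with at least 50 cells and 10 Rhd counts, its 10th and 90th percentiles were 2.98 and 4.70 in the E14.5 liver (205 tiles), 3.92 and 6.09 in the P8 marrow (97), 4.69 and 10.9 in the untreated spleen (68), and 2.56 and 5.04 in the PHZ spleen (191). The level of Slc4a1 itself was even in the fetal liver, with 47113 and 75088 CPM at those percentiles. It was uneven elsewhere, with 337 and 72039 CPM in the P8 section, which also holds cartilage and muscle, 168 and 11499 in the untreated spleen and 3633 and 65412 in the PHZ spleen. Tiles with more Slc4a1 had more Rhd, with Spearman's rho of 0.662 in the E14.5 liver, 0.923 in the P8 marrow, 0.942 in untreated spleen and 0.864 in PHZ spleen. The tiles of a section share its slide and adjoin each other.

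The untreated spleen differed from the other sections in how the ratio moved with the amount of Slc4a1. Its cells with 1 to 2 Slc4a1 counts had 19.3 Slc4a1 counts per Rhd count (17.7 to 21.1), those with 10 to 14 had 5.28, and those with 30 or more had 3.94. In the E14.5 liver the same classes had 2.40, 3.49 and 3.90, in the P8 marrow 4.31, 4.31 and 5.05, and in the PHZ spleen 3.08, 3.07 and 4.26. Since the classes were made from Slc4a1 counts, the ratio is bound to be pushed up in the higher ones. Among untreated spleen cells it nevertheless stood highest in the lowest class, which held 8549 of its cells. Cells without Slc4a1 are in no class, and 630 cells of the untreated spleen held Rhd alone. Leaving out their Rhd pushes the ratio of cells with little Slc4a1 up, so the value of the lowest class cannot be read by itself. From the class with 3 to 5 counts upward the ratio of that section still fell, from 13.9 to 3.94. Cells with 30 or more counts, 34 in all, had a ratio there close to that of the E14.5 liver.

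Nucleus area was compared in erythroid-gate cells, in 5 classes of equal size. In the E14.5 liver a cell of the smallest class held 7.03 Slc4a1 counts on average and a cell of the largest 14.6. The respective means were 5.42 and 12.6 in the P8 marrow, 2.77 and 6.68 in the untreated spleen, and 4.61 and 12.3 in the PHZ spleen. Rhd ran from 1.61 to 4.68, from 1.03 to 3.64, from 0.576 to 1.94 and from 1.33 to 4.65 in the same order. Cells with larger nuclei thus held more of both genes in each of these sections of the smaller panel. They also held more counts of all genes together, 285 against 98.9 in the E14.5 liver, and had larger outlines. Per 1000 gene counts, Slc4a1 from the smallest to the largest class was 71.1, 79.7, 72.6, 69.0 and 51.2 in the E14.5 liver and 70.6, 81.9, 79.9, 72.5 and 62.1 in the P8 marrow. It was 34.6, 41.3, 38.0, 37.2 and 33.0 in the untreated spleen and 62.3, 66.5, 66.6, 65.4 and 57.6 in the PHZ spleen. On this scale the largest class lay below the smallest in 3 sections, while in the untreated spleen the smallest and the largest class, with 158 and 157 cells, were too close to be told apart. Rhd per 1000 gene counts was 16.2, 20.1, 21.5, 21.4 and 16.4 in the E14.5 liver, highest in the middle classes. In the P8 marrow it was 13.4, 16.1, 17.5, 19.04 and 17.8, in the untreated spleen 7.21, 7.59, 7.61, 6.95 and 9.57 and in the PHZ spleen 18.1, 20.3, 21.5, 23.5 and 21.8, with the largest class above the smallest in each of these.

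The ratio of both genes does not need the depth of the cell. It was higher in the smallest nuclei than in the largest, beyond the counting intervals, in 3 sections. From the smallest to the largest class it was 4.37, 3.97, 3.38, 3.22 and 3.12 in the E14.5 liver. In the P8 marrow it was 5.28, 5.10, 4.57, 3.81 and 3.48, and in the PHZ spleen 3.45, 3.28, 3.09, 2.78 and 2.64. In these 3 sections each class lay below the one before it. The ratio also depends on place in the cell, with 3.02 over the nucleus and 4.86 off it in the E14.5 liver. In the smallest class of that section the median nucleus was 14.7 µm² and the mean outline 38.2 µm². In the largest class they were 43.8 and 83.2 µm². The part of place in the cell in this trend was not tested. The classes of the untreated spleen were smaller: with 155 to 158 cells a class, the lower 4 classes lay between 4.80 and 5.44 with intervals that overlapped, and the largest class had 3.45 (3.03 to 3.93), which overlaps the interval of the smallest (3.82 to 6.09). With the gate at 5 counts the smallest class, from 2.86 to 4.83, spanned the 3.24 of the largest. Kit counts were higher in cells with large nuclei, with a mean of 1.48 in the largest and 0.191 in the smallest class of the E14.5 liver. In gated cells without a Kit count the ratio still differed between the smallest and the largest class, with 4.43 and 3.22 in the E14.5 liver, 5.28 and 3.54 in the P8 marrow, 5.17 and 3.39 in the untreated spleen and 3.46 and 2.72 in the PHZ spleen. As a description over gated cells, Spearman's rho of nucleus area with Slc4a1 was 0.323 in the E14.5 liver, 0.363 in the P8 marrow, 0.106 in untreated spleen and 0.441 in PHZ spleen, and with Rhd 0.342 in the E14.5 liver, 0.365 in the P8 marrow, 0.130 in untreated spleen and 0.424 in PHZ spleen.

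Cells were next ordered by Kit. Slc4a1 averaged 12.0 counts in E14.5 liver cells without a Kit count, 10.2 in those with 1 to 2, 7.20 in those with 3 to 5 and 6.94 in those with 6 or more. Rhd averaged 3.33, 2.86, 2.50 and 2.62. Both were lower in Kit-rich cells of this section, Slc4a1 more so. In the PHZ spleen Slc4a1 averaged 4.99 without Kit and 4.55 at 6 or more, whereas Rhd was higher at 6 or more, at 2.34 against 1.56. For the P8 marrow, Slc4a1 was 5.71 and 5.76, and Rhd 1.28 and 2.35. For the untreated spleen, Slc4a1 was 0.341 and 0.769, and Rhd 0.0465 and 0.980. Cells rich in Kit had more gene counts in all sections, such as a mean of 262 against 115 in the PHZ spleen, and per 1000 gene counts Rhd was lower at 6 or more Kit counts there, at 8.94 against 13.5. In cells with at least 3 Kit counts, the mean of Slc4a1 divided by that in cells without Kit was 0.593 in the E14.5 liver, 1.00 in the P8 marrow, 1.35 in untreated spleen and 0.846 in PHZ spleen. For Rhd this quotient was 0.762 in the E14.5 liver, 1.42 in the P8 marrow, 6.07 in untreated spleen and 1.24 in PHZ spleen. Taken per 1000 gene counts, the quotient fell below 1 for Rhd in the P8 marrow (0.893) and the PHZ spleen (0.668) and for Slc4a1 in the untreated spleen (0.766), while Rhd stayed above 1 in the untreated spleen (3.44). Among erythroid-gate cells the mean at 3 or more Kit counts was below that at 0 for both genes in every section: the same quotient was between 0.243 (untreated spleen) and 0.650 (P8 marrow) for Slc4a1, and between 0.707 (untreated spleen) and 0.934 (P8 marrow) for Rhd. At 6 or more Kit counts, however, gated cells had as much Rhd as those without Kit or more in 2 sections, 2.53 against 2.27 in the P8 marrow (133 cells) and 1.15 against 1.11 in the untreated spleen (13 cells).

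Over all cells, the ratio of Slc4a1 to Rhd was lower the more Kit a cell held, in each of the 4 sections. From 0 over 1 to 2 and 3 to 5 to 6 or more Kit counts it was 3.60, 3.55, 2.89 and 2.65 in the E14.5 liver. For the P8 marrow it was 4.45, 4.30, 3.37 and 2.45, and in the PHZ spleen 3.21, 2.85, 2.28 and 1.94. The untreated spleen spanned most, with 7.35, 5.96, 2.26 and 0.785. Its 199 cells with 6 or more Kit counts were the only one of these 16 classes with more Rhd than Slc4a1, 195 counts against 153. They averaged 1.80 Gata1, 2.45 Klf1 and 2.93 Epor counts, compared with 0.0394, 0.0439 and 0.0658 in cells without Kit. Cpa3, a protease gene of mast cells and early progenitors, averaged 0.286 counts in them. Only 13 of these 199 cells passed the erythroid gate. In the same Kit class 2152 of 2337 cells did in the E14.5 liver, 133 of 160 in the P8 marrow and 264 of 550 in the PHZ spleen. The gate leaves out cells with 3 or more C1q counts. How many of the 199 cells failed it for that reason was not counted. In erythroid-gate cells the ratio by the same Kit classes was 3.499, 3.46, 2.83 and 2.61 in the E14.5 liver, 4.21, 4.11, 3.16 and 2.27 in the P8 marrow and 2.97, 2.73, 2.35 and 1.88 in the PHZ spleen. Gated cells of the untreated spleen did not follow that order throughout, with 4.62, 5.20, 2.31 and 0.200, the interval at 1 to 2 Kit counts (3.94 to 6.95) holding the value at 0. The 2.31 came from 43 cells (1.47 to 3.71). The 0.200 rests on 3 Slc4a1 and 15 Rhd counts in 13 cells (0.0371 to 0.707).

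**Figure D3:**
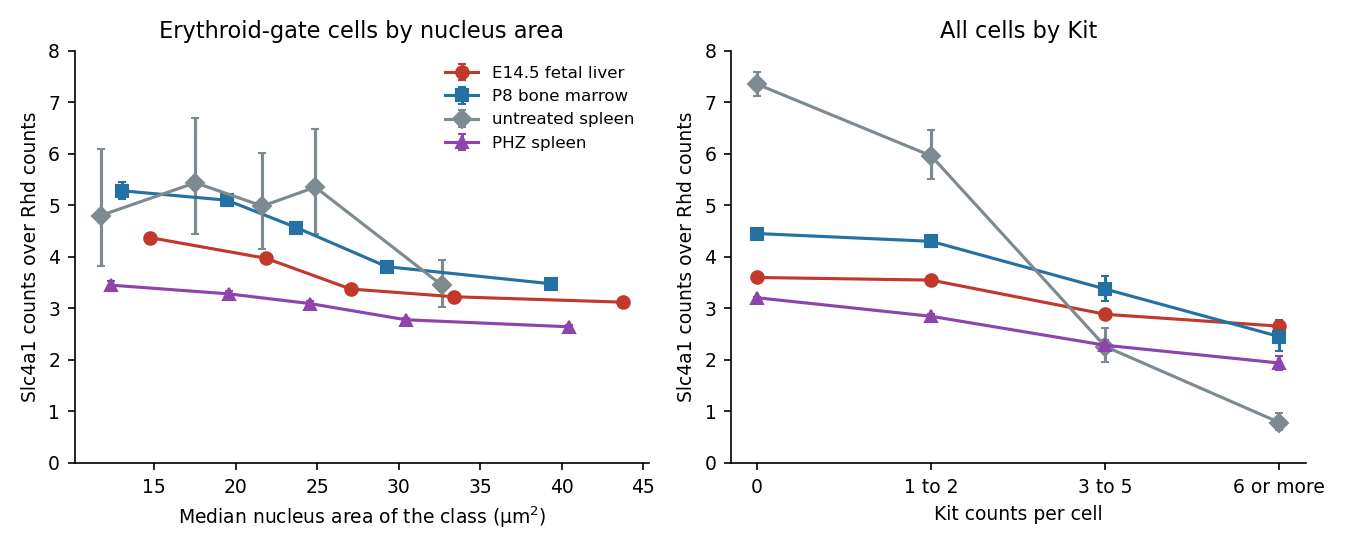
Slc4a1 counts per Rhd count in erythroid-gate cells in 5 classes of nucleus area (left, placed at the median area in µm²) and in all cells by Kit count (right), with a line per section and 95% binomial intervals as bars. The ratio is lower in the largest nuclei than in the smallest, with intervals that overlap in the untreated spleen, and lower at 6 or more Kit counts than at 0 in every section, from 7.35 to 0.785 by Kit in the untreated spleen.

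Cells with at least 3 C1q counts, the threshold for macrophage signal, held both red cell genes. They made up 12.8% of cells in the E14.5 liver, 11.5% of cells in the P8 marrow, 36.0% of cells in untreated spleen and 35.2% of cells in PHZ spleen. Their mean Slc4a1 count was 12.1 in the E14.5 liver, 8.59 in the P8 marrow, 0.738 in untreated spleen and 4.68 in PHZ spleen. In all other cells of the same sections it averaged 11.3 in the E14.5 liver, 5.40 in the P8 marrow, 0.129 in untreated spleen and 5.10 in PHZ spleen. The mean Rhd count of C1q cells was 2.91 in the E14.5 liver, 1.75 in the P8 marrow, 0.116 in untreated spleen and 1.41 in PHZ spleen. In the other cells Rhd averaged 3.26 in the E14.5 liver, 1.25 in the P8 marrow, 0.0157 in untreated spleen and 1.67 in PHZ spleen. In the untreated spleen C1q cells thus held 5.73 times as much Slc4a1 and 7.39 times as much Rhd as the rest, and in the P8 marrow 1.59 and 1.40 times. Per 1000 gene counts the untreated values were 3.65 and 4.71. As means per cell, with at least 1 C1q count in place of 3, they were 7.93 and 13.1. In the PHZ spleen both were lower than in the rest, at 0.918 and 0.847 times. In the E14.5 liver Slc4a1 stood at 1.06 and Rhd at 0.892 times the rest. Some of these directions turned with the threshold: at 1 C1q count Slc4a1 was at 1.04 times the rest in the PHZ spleen and Rhd at 1.06 in the E14.5 liver, and at 10 Slc4a1 was at 0.816 in the E14.5 liver and Rhd at 0.858 in the P8 marrow. C1q cells were also deeper in all 4 sections, with a median of 110 gene counts against 72.5 in the untreated spleen and 135 against 89 in the PHZ spleen. Of all Slc4a1 counts in the untreated spleen, 76.3% lay in C1q cells, and of all Rhd counts 80.6%. In the PHZ spleen the C1q cells held 33.2% and 31.5%.

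Cells with more C1q held less of both genes than those with 3 or more in 3 of the 4 sections. At 10 or more C1q counts Slc4a1 averaged 9.38 in the E14.5 liver, 6.89 in the P8 marrow, 1.07 in untreated spleen and 3.27 in PHZ spleen, and Rhd 1.67 in the E14.5 liver, 1.12 in the P8 marrow, 0.172 in untreated spleen and 0.857 in PHZ spleen. The untreated spleen was the exception, with more of both at 10 or more. In cells with 3 or more C1q counts the ratio of Slc4a1 to Rhd was 4.15 in the E14.5 liver, 4.90 in the P8 marrow, 6.35 in untreated spleen and 3.31 in PHZ spleen. At 10 or more it was 5.62 in the E14.5 liver, 6.13 in the P8 marrow, 6.20 in untreated spleen and 3.82 in PHZ spleen. In the fetal liver, the marrow and the PHZ spleen the ratio was thus above that of erythroid-gate cells, and further above it at the higher threshold. Both C1q classes of the untreated spleen lay above the gated cells (4.50), but below all cells together (6.70).

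Some other erythroid genes were also higher in C1q cells of the untreated spleen. In the untreated spleen the mean in C1q cells over that in the rest was 7.34 for Epor, 6.70 for Klf1, 6.36 for Hemgn and 4.40 for Hbb-bt. In the PHZ spleen it was 1.02, 0.961, 0.891 and 1.02 for the same genes. Others of the list were near or below 1 in the untreated spleen, with 0.891 for Podxl, 0.989 for Ndufa4l2 and 1.04 for Hk1, and 5 more were between 1.32 and 1.51 (Slc25a37, Cd36, Isca1, Diaph3 and Tfrc). Where the C1q cells lay in each organ moved with this, and its part in the difference was not tested. Over tiles of 200 µm, Spearman's rho between the CPM of Slc4a1 and the share of C1q cells was 0.758 in the untreated spleen (129 tiles) and -0.629 in the PHZ spleen (201). In the P8 marrow it was 0.576 (186) and in the E14.5 liver -0.00966 (206).

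For comparison, cells gated by genes of other types were read in the same way. In the P8 section, cells with at least 5 counts of cartilage genes averaged 0.0976 Slc4a1 and 0.0165 Rhd counts, and 6.73% and 1.31% of them had at least 1, at a median depth of 98. For skeletal muscle genes these shares were 19.6% and 2.72% (median depth 149). Of cartilage-gate cells 0.562%, and of muscle-gate cells 1.6%, passed the erythroid gate. How near they lay to erythroid cells was not measured, so their shares need not be the background of marrow cells. C1q cells of the same section had Slc4a1 in 83.7% and Rhd in 56.8%, at a median depth of 147. Among untreated spleen cells, 4.45% of cells with at least 5 counts of T cell genes had Slc4a1 and 0.444% had Rhd (median depth 86), whereas 21.0% and 4.78% of C1q cells did (median depth 110). In the PHZ spleen the T cell shares were 20.1% and 8.03% (median depth 78), and the C1q shares 59.5% and 40.3% (median depth 135). After thinning to 50 gene counts, the share of C1q cells with Slc4a1 was 89.5% in the E14.5 liver, 74.6% in the P8 marrow, 13.2% in untreated spleen and 49.7% in PHZ spleen. That of the remaining cells was 88.1% in the E14.5 liver, 62.5% in the P8 marrow, 4.63% in untreated spleen and 68.5% in PHZ spleen. Other gates were closer to C1q cells, and for Slc4a1 the C1q share was not the highest in 3 of the sections. For Rhd it was the highest in the P8 marrow and the untreated spleen only, though some of these orders lay within counting error. In the E14.5 liver 77.6% of hepatocyte-gate and 74.2% of C1q cells had Rhd. For the PHZ spleen it was 42.4% of megakaryocyte-gate (39.5 to 45.4) and 40.3% of C1q cells (39.8 to 40.9). In the P8 marrow Slc4a1 and Rhd were in 79.6% and 39.8% of neutrophil-gate, 87.3% and 50.2% of megakaryocyte-gate and 92.1% and 46.0% of NK cell-gate cells, and Slc4a1 in 63.8% of endothelial-gate cells. Among PHZ spleen cells Slc4a1 was in 76.4% of megakaryocyte-gate, 69.1% of endothelial-gate, 65.6% of NK cell-gate and 61.3% of neutrophil-gate cells. In the E14.5 liver it was in 97.7% of hepatocyte-gate (97.57 to 97.83) and 95.5% of endothelial-gate cells, beside 97.3% of C1q cells (97.07 to 97.60). Many of these cells also passed the erythroid gate, from which C1q cells are left out by definition. That was so in the P8 marrow for 58.8% of neutrophil-gate, 82.5% of megakaryocyte-gate, 47.7% of endothelial-gate and 74.6% of the 63 NK cell-gate cells, and for the PHZ spleen 39.4%, 59.6%, 39.5% and 53.4% in the same order. In the untreated spleen all gates read were below C1q cells for Slc4a1, from 4.45% (T cell) to 12.1% (NK cell).

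The Slc4a1 counts of a C1q cell were higher where Slc4a1-rich cells lay close by. Cells with 10 or more Slc4a1 counts and fewer than 3 C1q counts were counted within 15 µm of each C1q cell, center to center. In C1q cells with 0 of them nearby the mean Slc4a1 count was 4.74 in the E14.5 liver, 2.27 in the P8 marrow, 0.628 in untreated spleen and 1.73 in PHZ spleen. With exactly 1 it was 9.54 in the E14.5 liver, 8.85 in the P8 marrow, 4.59 in untreated spleen and 7.67 in PHZ spleen. With 5 or more, the mean was 12.9 in the E14.5 liver, 11.6 in the P8 marrow and 9.89 in the PHZ spleen, and with 3 to 4 it was 9.66 in the untreated spleen (29 cells). Rhd, which did not define the neighbors, was likewise higher with 5 or more than with 0 of them, from 0.801 to 3.23 in the E14.5 liver, from 0.341 to 2.58 in the P8 marrow and from 0.465 to 3.20 in the PHZ spleen. C1q counts ran the other way, with 10.2 and 6.71 in the E14.5 liver, 6.35 and 5.03 in the P8 marrow, and 9.61 and 5.43 in the PHZ spleen. The untreated spleen showed no such order, with 8.86, 8.72, 9.32 and 8.52 C1q counts at 0, 1, 2 and 3 to 4 neighbors, nor did the 89-week marrow, with 4.78 at 0 and 5.22 at 3 to 4. Depth differed between these classes too. From 0 to 5 or more neighbors the mean went from 222 to 174 gene counts in the E14.5 liver. It went from 209 to 145 in the P8 marrow and from 140 to 160 in the PHZ spleen. In the P8 marrow depth fell by a larger share than C1q, so C1q per gene count was not lower there. The part of neighboring cells in the counts of C1q cells was not tested. Even without such a neighbor, 69.1% of C1q cells had Slc4a1 in the E14.5 liver, 42.9% in the P8 marrow, 19.6% in the untreated spleen and 34.0% in the PHZ spleen.

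**Figure D4:**
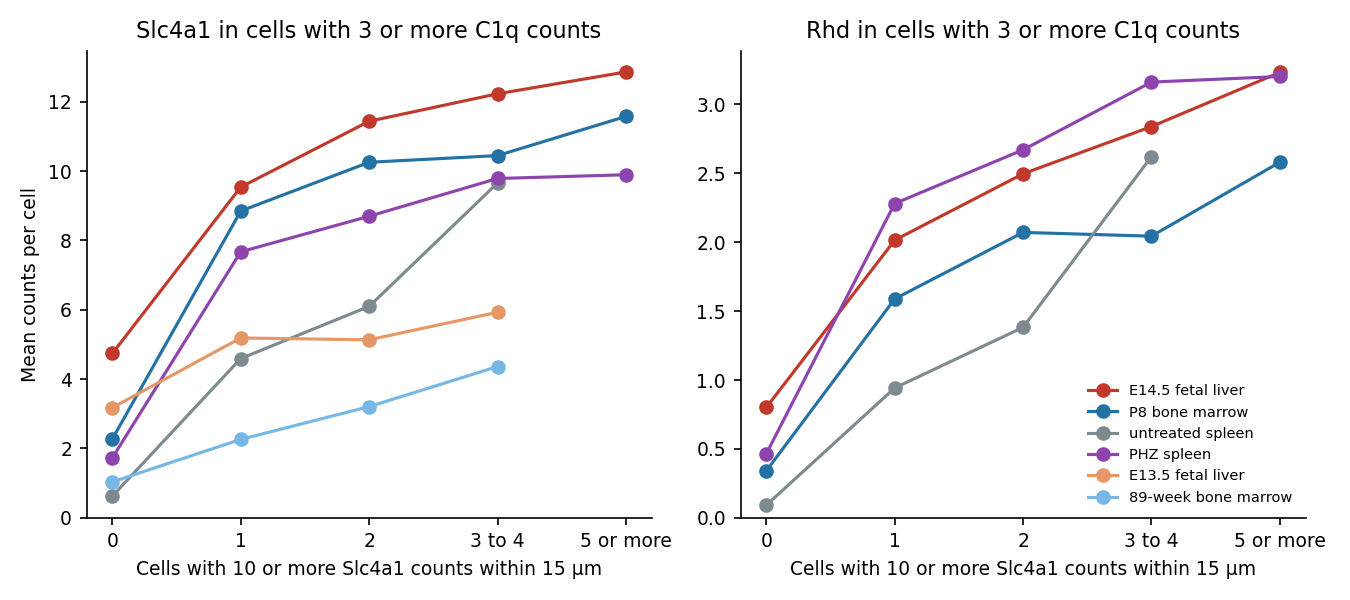
Mean Slc4a1 counts (left) and mean Rhd counts (right) of cells with 3 or more C1q counts, with a line per section. Classes are the number of cells within 15 µm that held 10 or more Slc4a1 and fewer than 3 C1q counts. Classes of fewer than 20 cells are not drawn. Means are higher next to such cells in every section, from 1.73 to 9.89 Slc4a1 counts in the PHZ spleen.

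Cells with no count of any of the 5 gate genes and fewer than 3 C1q counts also held more next to Slc4a1-rich cells. In the PHZ spleen their Slc4a1 mean was 0.193 with 0 Slc4a1-rich neighbors, 1.28 with 1 and 2.20 with 5 or more. In the P8 marrow it was 0.142, 0.957 and 1.96, and in the E14.5 liver 0.495, 1.27 and 1.94. The absence of 5 erythroid genes, Hemgn among them, picks cells poor in both members, and these cells were shallower than C1q cells, with a mean of 61.5 gene counts against 169 with 1 neighbor in the PHZ spleen. Their level of Slc4a1 and their Slc4a1 to Rhd ratio, 9.87 there, are thus partly set by the choice and were not compared with those of C1q cells.

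Single transcripts with a quality score of at least 20 were placed relative to the nucleus in the 4 sections where they were deposited. The share of Slc4a1 transcripts in cells that lay over the nucleus was 60.3% in the E14.5 liver, 63.1% in the P8 marrow, 53.1% in untreated spleen and 56.4% in PHZ spleen. For Rhd it was 70.9% in the E14.5 liver, 70.7% in the P8 marrow, 67.7% in untreated spleen and 65.4% in PHZ spleen. Rhd lay over the nucleus more often in each section. The median over genes with at least 1000 transcripts was 54.9% in the E14.5 liver, 48.1% in the P8 marrow, 58.9% in untreated spleen and 50.9% in PHZ spleen. Among those genes, of which there were 292 in the E14.5 liver, 253 in the P8 marrow, 293 in untreated spleen and 273 in PHZ spleen, Rhd ranked 29 in the E14.5 liver, 11 in the P8 marrow, 74 in untreated spleen and 42 in PHZ spleen, counted from the most nuclear, and Slc4a1 99 in the E14.5 liver, 32 in the P8 marrow, 215 in untreated spleen and 92 in PHZ spleen. A section is 5 µm thick, so a transcript over the nucleus need not be in it. In C1q cells the share of Slc4a1 over the nucleus was 58.9% in the E14.5 liver, 63.3% in the P8 marrow, 52.6% in untreated spleen and 54.7% in PHZ spleen. That of Rhd was 71.4% in the E14.5 liver, 71.4% in the P8 marrow, 67.4% in untreated spleen and 64.9% in PHZ spleen. C1qa, one of the genes that define these cells, had 46.0% in the E14.5 liver, 48.7% in the P8 marrow, 42.1% in untreated spleen and 30.6% in PHZ spleen. In C1q cells both members thus lay over the nucleus more often than C1qa did. Erythroid-gate cells showed the same order. There C1qa had 47.3% in the E14.5 liver, 53.6% in the P8 marrow, 44.8% in untreated spleen and 32.8% in PHZ spleen. Slc4a1 had between 58.5% (PHZ spleen) and 64.7% (untreated spleen) in them, and Rhd between 66.1% and 71.8% in the same sections. Over all cells C1qa ranked 248 in the E14.5 liver, 126 in the P8 marrow, 275 in untreated spleen and 257 in PHZ spleen. The contrast was not particular to C1q cells. Off the nucleus, Slc4a1 transcripts in C1q cells lay a median of 0.837 µm from it in the untreated spleen and 0.888 µm in the PHZ spleen, and C1qa transcripts 0.963 and 1.63 µm.

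Outside every outlined cell the balance of both genes was of another kind. There 40029 Slc4a1 and 2028 Rhd transcripts lay in the E14.5 liver, 9976 and 730 in the P8 marrow, 1034 and 31 in the untreated spleen and 10331 and 776 in the PHZ spleen. As a share of each gene's transcripts this was, for Slc4a1, 2.90% in the E14.5 liver, 3.31% in the P8 marrow, 2.67% in untreated spleen and 2.16% in PHZ spleen. For Rhd it was 0.534% in the E14.5 liver, 1.09% in the P8 marrow, 0.548% in untreated spleen and 0.517% in PHZ spleen. The share over all genes was 2.83% in the E14.5 liver, 10.6% in the P8 marrow, 0.595% in untreated spleen and 1.73% in PHZ spleen, so that Slc4a1 was above it in 3 sections and below it in the P8 marrow. Rhd was below it in 3 sections, while in the untreated spleen its share, from 31 transcripts, was too close to be told apart. Hbb-bt was at 6.17% in the E14.5 liver, and Hemgn at 0.854%. The ratio of Slc4a1 to Rhd outside cells was 19.7 in the E14.5 liver, 13.7 in the P8 marrow, 33.4 in untreated spleen and 13.3 in PHZ spleen. Inside cells but off the nucleus it was 4.86 in the E14.5 liver, 5.57 in the P8 marrow, 9.73 in untreated spleen and 3.95 in PHZ spleen, and over the nucleus 3.02 in the E14.5 liver, 3.93 in the P8 marrow, 5.26 in untreated spleen and 2.71 in PHZ spleen. The order from nucleus to cell body to the space outside was the same in all 4 sections, and the intervals of the 3 places did not overlap in any of them. Gates of other cell types varied. Endothelial-gate cells had 4.95 in the E14.5 liver, 8.04 in the P8 marrow, 11.1 in untreated spleen and 5.89 in PHZ spleen, and T cell-gate cells of the untreated spleen 15.8 (12.4 to 20.4). Others were nearer to all cells together, with 3.11 in stromal-gate cells of the PHZ spleen, 6.36 in megakaryocyte-gate cells of the untreated spleen, 5.09 in neutrophil-gate cells of the P8 marrow and 3.68, 4.09 and 4.09 in hepatocyte-, stromal- and megakaryocyte-gate cells of the E14.5 liver.

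**Figure D5:**
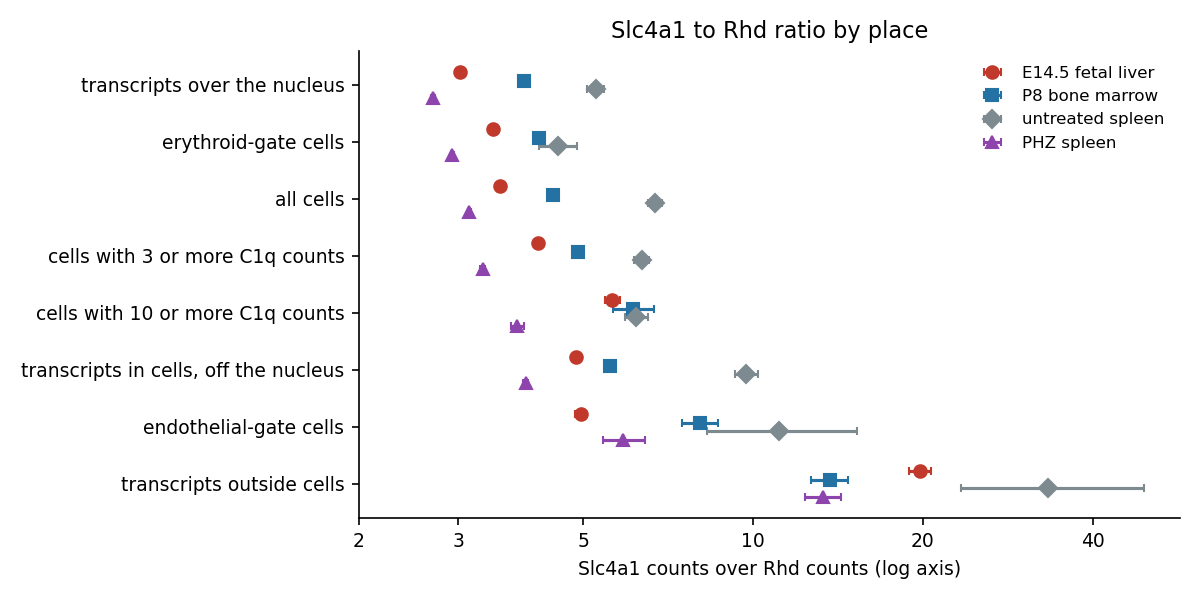
Slc4a1 counts per Rhd count (log axis) in the cells or places named on the left, with a symbol per section and 95% binomial intervals as bars. In every section the ratio is lowest over the nucleus or in erythroid-gate cells and highest outside cells, where it reaches 33.4 in the untreated spleen.

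On the larger panel Slc4a1 could be followed alone. It gave 18138 counts in the E13.5 fetal liver and 134752 in the 89-week marrow, or 13098 and 10330.2 CPM, and ranked 6 and 10 among 5050 genes. The panel files list a coverage of 2 for it there, against 8 on the smaller panel, so these values are not comparable with those of the smaller panel. Slc4a1 was seen in 70.5% of cells of the E13.5 liver and 24.2% of the aged marrow. In both sections its nearest gene over cells was Alas2, the first enzyme of heme synthesis in erythroid cells, with r of 0.617 and 0.607. The next nearest included Car2, Cd24a and Cpox in the liver, and Car2, Cd24a and Tfrc in the marrow. The erythroid gate could use only Klf1, Gata1 and Epor here and took 521 and 2609 cells. Within it, the Slc4a1 mean per cell was highest in neither the smallest nor the largest class of nucleus area: from small to large nuclei it was 5.42, 6.28, 7.30, 5.49 and 4.93 in the liver and 4.89, 7.62, 8.41, 9.61 and 7.14 in the marrow. The order was another per 1000 gene counts, with 16.8, 16.1, 15.3, 8.91 and 5.51 in the liver, highest in the smallest nuclei, and 23.6, 29.8, 27.5, 27.0 and 14.2 in the marrow. Gated cells with 1 to 2 Kit counts averaged 2.14 and 1.04 Slc4a1 counts, against 6.30 and 7.91 without Kit. C1q cells averaged 4.50 and 1.49 counts, and the other cells 3.39 and 0.942. The C1q cells were deeper, with a median of 252 gene counts against 186 in the liver and 134 against 60 in the marrow. They were not above the rest per 1000 gene counts, at 12.6 against 13.1 in the liver (301 C1q cells) and 9.02 against 10.4 in the marrow. This turned with the threshold: with at least 1 C1q count the values were 13.5 against 13.0 and 11.2 against 10.1. Cells with 10 or more C1q counts held 0.834 and 0.722 times the mean of the rest. With 3 to 4 Slc4a1-rich cells within 15 µm the mean of C1q cells was 5.93 and 4.36, against 3.18 and 1.04 with 0.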

How the data were processed

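The deposited files hold, for 6 sections, counts of transcripts per gene and cell that the authors took from the instrument's software without normalization. The run descriptions name Xenium Onboard Analysis (1.7.1.0 for the smaller panel and 3.1.0.4 for the larger), and the study's methods name Space Ranger. Cells of the smaller panel are expanded nuclei, those of the larger were outlined with boundary stains. For the smaller panel the authors also deposited single transcripts with a quality score, and summed over cells the transcripts with a score of at least 20 equalled the deposited counts for each of the 477 genes in all 4 sections. The genome build is not given in the sources used here.

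Cells with at least 5 detected genes were kept, as in the study's methods. Levels are counts per 1000000 gene counts of a section (CPM) or means per cell. Groups of cells were gates on summed counts: at least 3 for C1q genes and erythroid genes, at least 5 for other types. Pearson correlations between genes used counts scaled to 5000 per cell and log(value + 1), Spearman correlations over cells the unscaled counts, and those over tiles CPM. The 5 genes most correlated with each member were named, as were the measured genes of the lists of red cell membrane and other erythroid genes in the spleen comparison, by value where past 2-fold; some genes that this rule names are not reported here. The values of Gata1, Klf1, Epor and Cpa3 by Kit, of Slc14a1 and Cd44, and of erythroid genes in C1q cells were added after the data had been seen. Counts have exact Poisson intervals, and shares and ratios of counts have exact binomial (Clopper-Pearson) ones. With 1 section per condition no test was run. The members and lists were chosen with earlier results of these data known. The ratio between sections, its interval and the thinning of cells were tested on simulated data. Alternatives changed the filter on cells, the total, the thresholds of the gates and the quality score, the depth scale and the place in the cell. Python 3.11.15, numpy 2.4.6, scipy 1.17.1, pandas 2.3.3 and matplotlib 3.10.9 were used. Doublets were not called and transcripts of neighboring cells were not removed.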

Additional observations from a re-analysis of the deposited data

Results flagged for a closer look

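The relation to Kit ran in opposite directions in different sections, which was not tested. The mean at 3 or more Kit counts over that at 0 was 0.593, 1.00, 1.35 and 0.846 for Slc4a1, and 0.762, 1.42, 6.07 and 1.24 for Rhd, in the order E14.5 liver, P8 marrow, untreated spleen and PHZ spleen. The P8 value for Slc4a1 is level. These directions did not hold on other scales: per 1000 gene counts Slc4a1 was below 1 in all 4 sections, at 0.389, 0.628, 0.766 and 0.455, and Rhd in all but the untreated spleen, at 0.499, 0.893, 3.44 and 0.668. In erythroid-gate cells both genes were below 1 in all 4 sections.

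The relation to C1q also changed direction between sections, untested. The mean at 3 or more C1q counts over that in the rest was, in the same order, 1.06, 1.59, 5.73 and 0.918 for Slc4a1 and 0.892, 1.40, 7.39 and 0.847 for Rhd. It depended on the threshold. With at least 1 C1q count Slc4a1 was above 1 in all 4 sections, at 1.14, 1.65, 7.93 and 1.04, and with at least 10 it fell to 0.816 in the E14.5 liver and Rhd to 0.858 in the P8 marrow.

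Transcripts outside every outlined cell entered no comparison of cells and were above the control probes. Slc4a1 had 40029, 9976, 1034 and 10331 such transcripts and Rhd 2028, 730, 31 and 776, while the highest of 20 negative control probes had 11, 13, 6 and 6.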

How the results depend on the processing

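Values follow the order E14.5 liver, P8 marrow, untreated spleen and PHZ spleen, and a difference counts as a move where it leaves the counting interval. For numbers of genes a set factor took the place of the interval. Levels, percents of cells and Slc4a1 to Rhd ratios have no direction to turn, so for them a move is a change of size only. Of 129 values under alternatives, 31 counted as the same, 81 moved without a turn of direction and 17 turned direction. Among the 17 were Slc4a1 by Kit in the P8 marrow, whose value was level to begin with, and Slc4a1 by nucleus area per 1000 gene counts in the untreated spleen, where the alternative was too close to 1 for a direction. The cause was not tested. Keeping all deposited cells, or only those with at least 20 gene counts, moved no level and no ratio past its interval. Without Hbb-bt in the total, the CPM of Slc4a1 became 68678, 47550.4 and 42894 and of Rhd 19312, 10786 and 13671 (untreated spleen within its interval). Thinned to 50 counts, the percent of cells was 88.4, 64.1, 8.15 and 61.1 for Slc4a1 and 53.0, 32.8, 1.33 and 35.9 for Rhd. The Slc4a1 to Rhd ratio was 3.46, 4.17, 4.50 and 2.93 in erythroid-gate cells, 3.43, 4.34, 8.46 and 3.17 with the minimum quality score raised to 30, and 3.02, 3.93, 5.26 and 2.71 over the nucleus only. At a score of 30, 69.5% of Rhd and 87.7% of Slc4a1 transcripts were left in the untreated spleen.

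The mean in the smallest over that in the largest nuclei, for Slc4a1 0.482, 0.428, 0.414 and 0.375 and for Rhd 0.344, 0.282, 0.297 and 0.287, became 0.425, 0.222, 0.311 and 0.210 and 0.289, 0.135, 0.146 and 0.143 over all cells. With the gate at 5 counts it was 0.522, 0.493 and 0.422 and 0.384, 0.345 and 0.344 (untreated spleen within its interval). Per 1000 gene counts it turned to 1.39, 1.14, 1.05 and 1.08 for Slc4a1, and was 0.990, 0.749, 0.753 and 0.829 for Rhd.

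The mean at 3 or more Kit counts over that at 0 became, in erythroid-gate cells, 0.568, 0.650, 0.243 and 0.538 for Slc4a1 and 0.722, 0.934, 0.707 and 0.719 for Rhd, which turned the untreated spleen for both genes and the P8 marrow and the PHZ spleen for Rhd, while the level P8 value of Slc4a1 fell below 1. Per 1000 gene counts it was 0.389, 0.628, 0.766 and 0.455 for Slc4a1 and 0.499, 0.893, 3.44 and 0.668 for Rhd, again below 1 but for Rhd in the untreated spleen.

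The mean in C1q cells over that in the rest was 1.14, 1.65, 7.93 and 1.04 for Slc4a1 and 1.06, 1.57, 13.1 and 0.987 for Rhd at 1 C1q count, which turned Rhd in the E14.5 liver and Slc4a1 in the PHZ spleen. At 10 it was 0.816, 1.20, 4.13 and 0.637 and 0.512, 0.858, 4.66 and 0.517, which turned Slc4a1 in the E14.5 liver and Rhd in the P8 marrow. Per 1000 gene counts it was 1.02, 1.18, 3.65 and 0.628 and 0.859, 1.04, 4.71 and 0.580. With transcripts over the nucleus only, Slc4a1 was at 1.03, 5.50 and 0.877 in the sections other than the P8 marrow, and Rhd stayed within its intervals.

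The PHZ to untreated ratio was 14.2 for Slc4a1 and 30.4 for Rhd per cell, 11.7 and 24.9 without Hbb-bt, and 1.73 and 2.66 in erythroid-gate cells, where 36 genes were at least 2-fold higher. No paired analysis was possible because each condition has 1 section, and no section could be left out for the same reason.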
